A study of Mus musculus with 1111 samples.

Results

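Endoplasmic reticulum chaperones and stress factors are described here as 10 genes taken by symbol from the 35583 genes of the deposited count tables. They are Hspa5, Hsp90b1, Calr, Canx, Pdia3, Pdia4, Pdia6, Xbp1, Atf4 and Ddit3, and all 10 were found. Their levels were read in single microglia, the resident macrophages of the brain, sorted by their content of labelled plasma protein. The cells came from 3-month-old mice, 20 hours after an injection of plasma proteins coupled to the dye NHS-Atto647N. That injection was common to all groups, and the labels give no strain, sex, mutation or other treatment. Each cell was made into its own Smart-seq2 library, a full-length method that reads whole transcripts. The labels place each cell in plasma none, plasma low or plasma high and give it a TH number from 1 to 3, whose meaning is not stated. Since the labels name no animal, every group stands for 1 sample, and no test between groups was run. After a filter, 987 cells remained, 35.1% of them plasma none, 35.6% plasma low and 29.4% plasma high. Their reads were summed by group and TH number into 9 sums of 21309816 to 49323522 reads, scaled to CPM, the counts in a library total of 1000000. Errors are the SD over the 3 TH numbers (n = 3), and they do not stand for differences between animals.

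The endoplasmic reticulum folds proteins that are bound for membranes, lysosomes and the outside of the cell. Calnexin, calreticulin and Pdia3 handle glycoproteins, Hspa5 and Hsp90b1 hold unfolded chains, and the disulfide isomerases form and reshuffle disulfide bonds. When unfolded proteins build up, sensors in its membrane start the unfolded protein response: ATF6 and the spliced form of XBP1 raise chaperone genes, and PERK slows translation while favouring ATF4, which acts upstream of Ddit3 (CHOP). Microglia take up and degrade much extracellular material and make many secreted and lysosomal proteins, so they express the folding machinery without any stress. Counts per gene do not separate spliced from unspliced Xbp1.

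The summed CPM of the 7 chaperones, most of it from Canx and Pdia3, was similar in the 3 groups. Among the 7, Pdia4 differed most from plasma none, 1.40-fold higher in plasma high and 1.37-fold higher in plasma low. Hspa5 was lower in plasma high than in plasma low in 3 of 3 TH numbers, by a log2 ratio of −0.24 ± 0.10. Among the stress factors, Xbp1 in plasma high stood at 0.807 times its plasma none level, Atf4 overlapped between all groups, and Ddit3 was near the lower limit of the data. No log2 ratio of a member averaged 1 or more in size.

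The groups could not be told apart from plate position. Plasma none cells lay in columns 1 to 8, plasma low cells in columns 9 to 16 and plasma high cells in columns 17 to 23. Median reads per cell were 207429, 229931 and 267143 in plasma none, low and high, median genes per cell 1708, 1994 and 1943, and the median share of mitochondrial reads 0.603%, 0.794% and 0.970%. The 8 microglial markers summed to between 45387 and 54371 CPM in the 9 sums. All 4 neutrophil and all 5 lymphocyte markers were at 0, as were 4 of 5 markers of border-associated macrophages (Mrc1 alone above 0, with its highest value, 22.2 CPM, in plasma low) and 2 of 3 of monocytes (at most 8.42 CPM), and of the 3 plasma cell markers found, 2 were at 0 and their sum reached at most 0.417 CPM. Among the other lists the highest sums were 71.3 CPM for 3 oligodendrocyte markers and 55.3 CPM for 3 neuronal markers, both in plasma high, against at most 29.3 and 0.646 CPM in plasma none. In the 3 oligodendrocyte genes 1 was at 0, and no neuronal marker was at 0 in every sum. The part of depth, genes per cell, mitochondrial reads and these markers in the results that follow was not tested.

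The endoplasmic reticulum stress element (ERSE) stands in some of these promoters, and its sites are shown before the levels. The element reads CCAAT, 9 bases of any kind and CCACG, and it is the site through which ATF6 and the factor NF-Y act. RefSeq promoters (GRCm38.p6, 250 bases before to 50 after the start of each gene) were found for all 10 genes and searched on both strands. An exact element stood in 5 of the 10, against 39 of 32851 promoters (0.119%). ATF6 raises chaperone genes through this element, so the element was not picked independently of the genes. The count describes these promoters and is no result about the set. The sites are at chr2:34772025-34772043 on the plus strand for Hspa5, at chr10:86705638-86705656 (minus) and chr10:86705533-86705551 (plus) for Hsp90b1, at chr8:84847075-84847093 (plus) for Calr, at chr11:50325800-50325818 (minus) for Canx and at chr12:17266491-17266509 (plus) for Pdia6. They are printed 5′ to 3′ with the CCAAT and CCACG ends in capitals.
Hspa5: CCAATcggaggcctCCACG
Hsp90b1, distal site: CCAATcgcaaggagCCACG
Hsp90b1, proximal site: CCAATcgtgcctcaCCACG
Calr: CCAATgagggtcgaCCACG
Canx: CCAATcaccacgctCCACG
Pdia6: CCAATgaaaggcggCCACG
The nearest to its start was that of Hspa5, with its last base 47 bases upstream, and the farthest was the distal site of Hsp90b1. The Calr site and the proximal Hsp90b1 site lie on the strand opposite to the gene. The spacers differ in every site.

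The Hspa5 promoter, chr2:34771840-34772139 on the plus strand, shows the element in its place, with the ends in capitals. The Pdia4 promoter, chr6:47813463-47813762 on the minus strand, is shown beside it because Pdia4 differed most from plasma none and holds no exact element, so that nothing is in capitals.
Hspa5 promoter: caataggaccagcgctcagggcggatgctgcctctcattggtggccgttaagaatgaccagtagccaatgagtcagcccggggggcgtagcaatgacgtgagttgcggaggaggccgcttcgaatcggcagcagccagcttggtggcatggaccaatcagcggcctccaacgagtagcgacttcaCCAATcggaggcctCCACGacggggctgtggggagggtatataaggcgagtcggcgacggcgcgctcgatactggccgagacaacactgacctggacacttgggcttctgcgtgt
Pdia4 promoter: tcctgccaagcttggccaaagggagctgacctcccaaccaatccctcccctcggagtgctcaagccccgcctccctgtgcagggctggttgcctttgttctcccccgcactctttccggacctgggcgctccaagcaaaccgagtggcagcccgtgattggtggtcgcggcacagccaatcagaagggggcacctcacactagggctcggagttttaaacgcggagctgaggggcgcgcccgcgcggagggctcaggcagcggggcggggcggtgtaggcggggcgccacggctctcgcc
CCACG, which is also the last part of the element, stood in 7 of the 10 promoters, Pdia4 among them, against 32.8% of all promoters. ACGTG, the core of the XBP1 site, stood in 4 (Hspa5, Calr, Pdia6 and Ddit3) against 19.6%. The related ERSE-II, which reads ATTGG, a base of any kind and CCACG (0.0365% of all), the XBP1 and ATF6 site TGACGTGG (0.676%), which contains the ACGTG core, and the C/EBP-ATF site TGATGNAA (3.97%) stood in 0 of the 10. These are matches of letters within 300 bases.

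Most of the 10 genes varied little over the 9 sums. Per kilobase of exon, which allows genes to be ranked, Canx was the highest at 599 ± 90.1 CPM per kb (SD over the 9 sums). Pdia3 followed at 420.1, Hsp90b1 at 215.4, Hspa5 at 154.7, Xbp1 at 115.4, Pdia6 at 111.9, Calr at 85.6, Pdia4 at 56.4, Atf4 at 48.02 and Ddit3 at 8.36 CPM per kb. Canx (450.3 to 733) and Pdia3 (319.6 to 531) overlapped in range, as did Hspa5 with Hsp90b1, Xbp1 and Pdia6, Xbp1 with Pdia6 and Calr, Pdia6 with Calr, and Pdia4 with Atf4. The coefficient of variation over the 9 sums was 8.24% for Calr, 11.2% for Hsp90b1, 13.5% for Hspa5 and Pdia6, 14.1% for Xbp1, 15.04% for Canx and 15.1% for Pdia3. Pdia4 reached 19.6%, Atf4 31.3% and Ddit3 37.4%. The median over the 791 genes with a mean of at least 200 CPM was 19.7%, and over the 6951 with at least 20 CPM it was 37.1%.

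**Figure D1:**
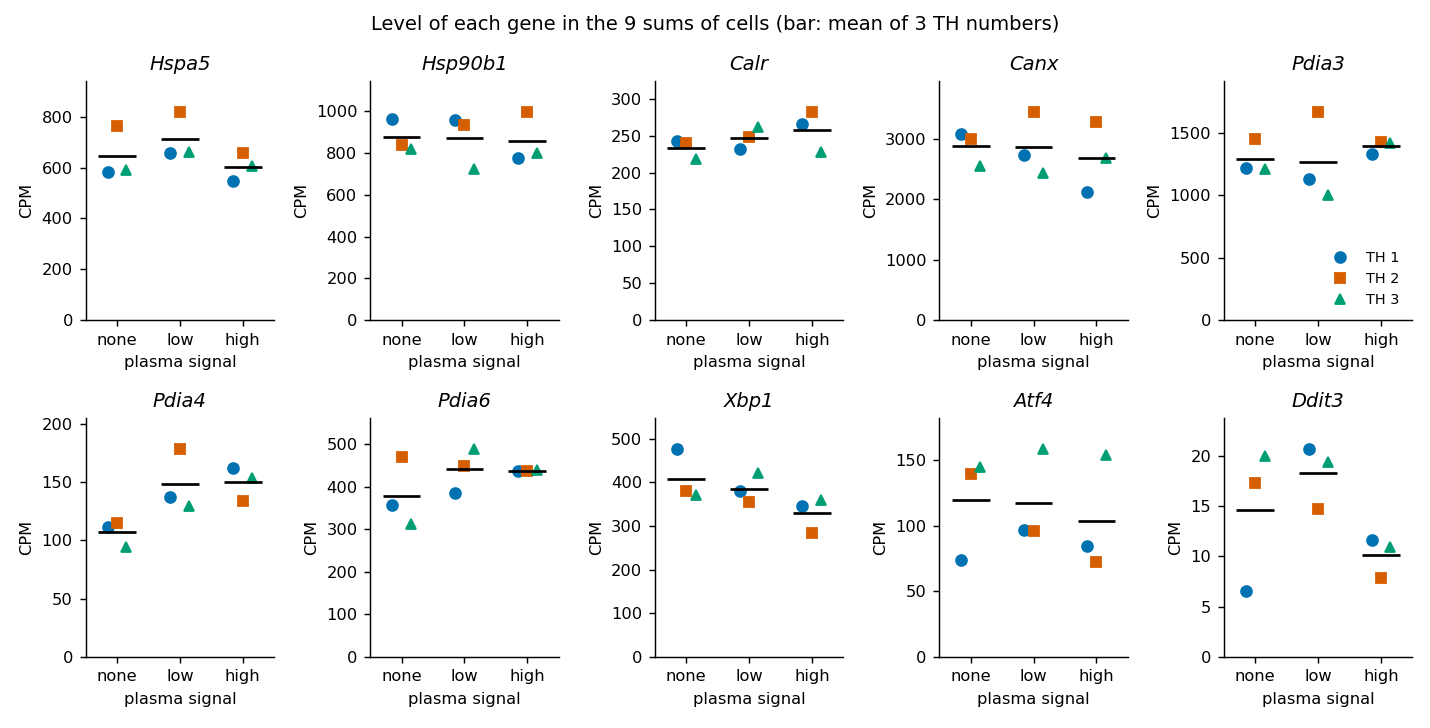
CPM (vertical axis, from 0, with a scale of its own for each gene) of the 10 genes in plasma none, low and high. Each point is 1 TH number and each bar the mean of 3. Pdia4 is lower in all 3 plasma none sums than in any other sum, Xbp1 is lower in plasma high than in plasma none, and the other chaperones overlap between plasma high and plasma none.

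Hspa5 encodes BiP, the most used marker of the unfolded protein response and the chaperone that holds its sensors silent. Its level in TH 1, 2 and 3 was 583, 764 and 592 CPM in plasma none, 659, 818 and 663 CPM in plasma low, and 546, 658 and 605 CPM in plasma high. TH 2 was the highest in each group. The means were 646 ± 101.5 for plasma none, 713 ± 90.97 for plasma low and 603 ± 56.5 CPM for plasma high. Plasma high against plasma none gave a log2 ratio, on the log2(CPM + 1) scale used for all ratios here, of −0.09 ± 0.12, with 1 of 3 TH numbers higher. Plasma low was higher than plasma none in 3 of 3 by 0.15 ± 0.04, although the ranges overlapped. Plasma high was lower than plasma low in 3 of 3 (log2 ratio −0.24 ± 0.10), and those ranges, 546 to 658 and 659 to 818 CPM, did not overlap but nearly touched. With each cell weighted equally that ratio was −0.14, and with cells thinned to 50000 reads −0.13.

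Hsp90b1, the ER form of the heat shock protein HSP90 and a chaperone of Toll-like receptors and integrins, did not separate the groups. It stood at 965, 837 and 822 CPM in plasma none, 959, 935 and 724 CPM in plasma low, and 779, 996 and 800.0 CPM in plasma high. Against plasma none, plasma high had a log2 ratio of −0.03 ± 0.28 and plasma low of −0.01 ± 0.17. The ranges overlapped in all 3 comparisons. Hsp90b1 overlaps Gm15344 on the same strand and a pseudogene on the other, and reads in the overlap could be counted to either.

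The lectin chaperones Calr and Canx bind glycoproteins that carry a trimmed sugar chain, Calr in the lumen and Canx in the membrane. Calr stood at 243.3, 239.8 and 218.04 CPM in plasma none, 232.2, 247.8 and 262.4 CPM in plasma low, and 265.6, 281.95 and 227.6 CPM in plasma high. Plasma high was above plasma none in 3 of 3 TH numbers, by a log2 ratio of 0.14 ± 0.09, but the ranges overlapped. Canx stood at 3082, 2994 and 2554 CPM in plasma none, 2729.6, 3442 and 2442 CPM in plasma low, and 2113, 3274 and 2681 CPM in plasma high. Its high against none ratio, −0.12 ± 0.37, rested on TH 1 (−0.54), and was 0.10 without it. So the most abundant chaperone transcript had no direction that held over the TH numbers.

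Pdia3, the disulfide isomerase that works with both lectins and in loading of MHC class I, had means of 1294 ± 135.7, 1267 ± 352.1 and 1395 ± 54.1 CPM across plasma none, low and high. Its values in plasma high were close together, at 1333, 1431 and 1422 CPM, and lay within the span of the plasma low sums, 1003 to 1666 CPM. Against plasma none, plasma high had a log2 ratio of 0.11 ± 0.12, with 2 of 3 TH numbers higher. Pdia6, a partner of Hspa5 that can act on the sensors IRE1 and PERK, stood at 356.3, 469 and 312.7 CPM in plasma none, 385.4, 448 and 489 CPM in plasma low, and 436, 436 and 439 CPM in plasma high. Its ratios to plasma none, 0.22 ± 0.30 for plasma high and 0.23 ± 0.37 for plasma low, were smaller than their SDs.

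Pdia4, a larger disulfide isomerase found with Hspa5 and Hsp90b1 in chaperone complexes, was the member with the clearest difference from plasma none. It stood at 111.8, 115.02 and 94.6 CPM in plasma none, 137.4, 178.7 and 129.6 CPM in plasma low, and 162.5, 133.6 and 153.9 CPM in plasma high. All plasma low and plasma high sums exceeded all plasma none sums. Plasma high was above plasma none by a log2 ratio of 0.48 ± 0.25 (0.54, 0.21 and 0.70 in TH 1, 2 and 3), a 1.40-fold difference. Plasma low was above plasma none by 0.46 ± 0.17 (0.29, 0.63 and 0.45), or 1.37-fold. These comparisons share the plasma none cells. Plasma high and plasma low did not separate (0.02 ± 0.38). Across 13 other settings the ratio to plasma none stayed between 0.37 and 0.62 for plasma high and between 0.37 and 0.57 for plasma low.

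The share of cells with a Pdia4 read was also higher in plasma low and plasma high. In plasma none it was 21.1% (exact 95% binomial interval 16.9% to 25.8%). In plasma low it was 28.5% (23.8% to 33.5%) and in plasma high 30.7% (25.4% to 36.3%). The intervals cover counting error only. Thinned to 50000 reads per cell, which no passing cell fell below, the shares were 18.8%, 26.2% and 26.6%. A share above that of plasma none in both other groups was not particular to Pdia4: it was found for 8 of the 10 genes as sequenced and for 6 after thinning, and the median number of genes per cell was higher in both groups as well. In cells with a read, the median was 405 CPM in plasma none, 506 CPM in plasma low and 445 CPM in plasma high. A cell without a Pdia4 read may still hold the transcript, since capture is incomplete.

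Xbp1, the transcription factor whose spliced form drives chaperone and secretory genes, was lower in plasma high. It stood at 477, 380.2 and 371.1 CPM in plasma none, 379.5, 355.5 and 422 CPM in plasma low, and 346.1, 284.3 and 359.1 CPM in plasma high. The plasma high sums lay below all plasma none sums, with the gap running from 359.1 to 371.1 CPM. Against plasma none, plasma high had a log2 ratio of −0.31 ± 0.23 (−0.46, −0.42 and −0.05), so TH 3 contributed little to it. Plasma high was below plasma low in 3 of 3 by −0.23 ± 0.09, with overlapping ranges. Plasma low and plasma none differed by −0.08 ± 0.26. The share of cells with an Xbp1 read did not follow this order, at 43.1%, 51% and 44.1% in plasma none, low and high. The median in cells with a read was 778 CPM in plasma none, against 628 in plasma low and 633 in plasma high.

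Atf4, the factor that PERK favours and that raises amino acid metabolism genes, was read in 19.6% of cells. It stood at 73.9, 139.1 and 144.98 CPM in plasma none, 96.4, 95.8 and 158.5 CPM in plasma low, and 84.2, 72.3 and 153.9 CPM in plasma high. TH 3 was the highest in every group, and the groups overlapped. Plasma high against plasma none gave −0.22 ± 0.62, with TH 2 at −0.93 and the other two above 0, and it was 0.14 without TH 2. Plasma high was below plasma low in 3 of 3, by −0.21 ± 0.18. In plasma high a single cell gave 14.5% of all Atf4 reads. ATF4 is regulated mainly in translation, which these counts do not show.

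Ddit3, which encodes the late and pro-apoptotic factor CHOP, was close to the limit of these data. It stood at 6.51, 17.3 and 20.02 CPM in plasma none, 20.7, 14.7 and 19.4 CPM in plasma low, and 11.6, 7.84 and 10.9 CPM in plasma high. With a mean under 20 CPM it was not among the genes tested against the size rule. Plasma high was below plasma low by −0.79, −0.83 and −0.77 in TH 1, 2 and 3 (mean −0.80 ± 0.03), and those ranges did not overlap. A single cell gave 24.6% of the Ddit3 reads in plasma low, and without the top cell of each sum the ratio was −0.56 ± 0.37. Plasma high against plasma none had no common sign (0.74, −1.05 and −0.82), and neither had plasma low against plasma none (1.53, −0.22 and −0.05). Where Ddit3 was read, the median was 4, 3 and 4 reads per cell in plasma none, low and high. The share of cells with a read was 19.7%, 23.6% and 22.1%, and after thinning 13.01%, 13.7% and 12.8%. A shorter overlapping gene, also named Ddit3, held 6.50% of the reads of both, all in 46 cells that also had reads of the longer gene. Mars and Gm4189 overlap Ddit3 on the other strand, as Catsper2 overlaps Pdia3 and Atp6v1c2 overlaps Pdia6. Whether counting used strand is not given in the sources used here.

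**Figure D2:**
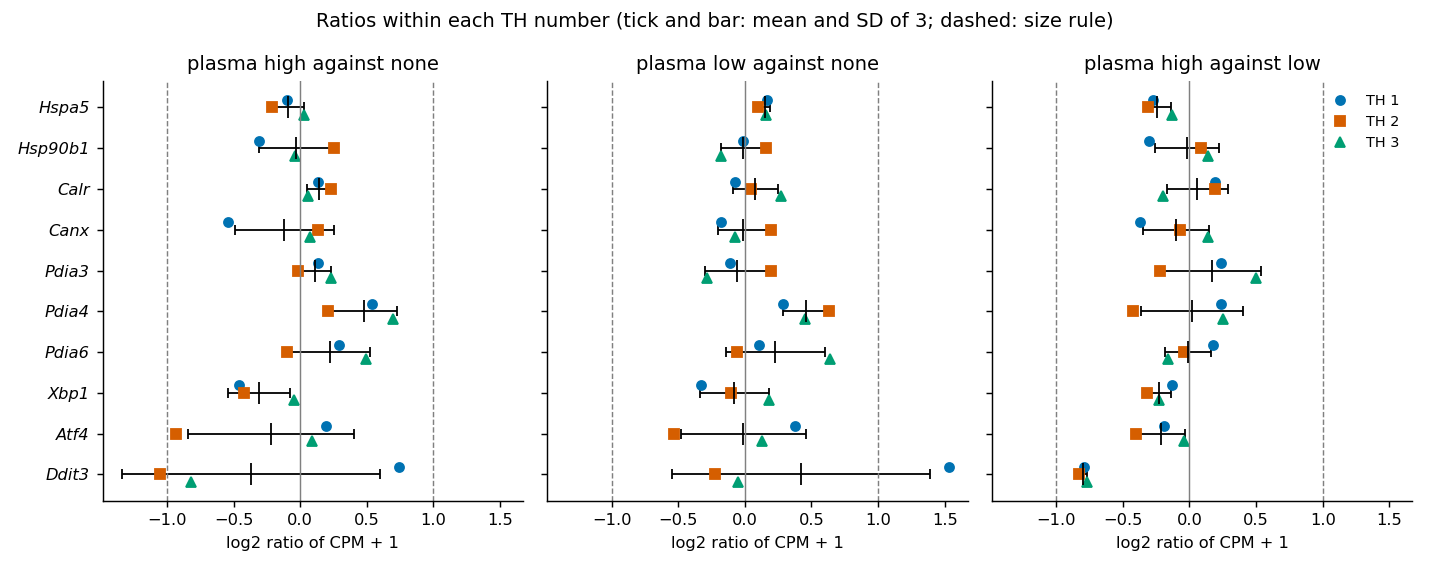
Log2 ratio of CPM + 1 (horizontal axis) for each of the 10 genes in the 3 comparisons. Points are TH numbers, the tick and bar the mean and SD of 3, and the dashed lines mark a log2 ratio of 1 in either direction. No mean reaches a dashed line, and Pdia4 lies to the right of 0 in all 3 TH numbers in both comparisons with plasma none.

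A size rule was used in place of a test: the mean log2 ratio had to reach 1 in size with 1 sign in 3 of 3 TH numbers, at a mean level of 20 CPM or more and with reads in 10% or more of the cells in either group. It was applied to 9 of the 10 genes, all but Ddit3, and 0 of the 9 met it in any comparison. Over all genes, 5.15% of 5534 met it for plasma high against plasma none, 2.64% of 5489 for plasma low against plasma none and 3.28% of 5709 for plasma high against plasma low. For plasma high against plasma none, Calr and Pdia4 of the 10 genes were higher in 3 of 3 TH numbers (18.8% of all genes) and Xbp1 was lower (13.8%). For plasma low against plasma none, Hspa5 and Pdia4 were higher in 3 of 3 (16.7% of all genes) and 0 of 10 lower (11.8%). For plasma high against plasma low, 0 of 10 were higher (14.1%) and 4 were lower (13.1%): Hspa5, Xbp1, Atf4 and Ddit3. Non-overlapping ranges were found for Pdia4 and Xbp1 in plasma high against plasma none (13.9% of all genes), for Pdia4 in plasma low against plasma none (9.55%), and for Hspa5 and Ddit3 in plasma high against plasma low (9.67%). With 10 genes each gene is 10% of the set, so these counts are no result about the set.

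The median log2 ratio of the 10 genes was −0.06 for plasma high against plasma none, 0.04 for plasma low against plasma none and −0.06 for plasma high against plasma low. The medians of all genes tested were 0.05, 0.05 and 0.01. For plasma high against plasma none the median of the 10 genes kept its sign in 9 of 13 other settings, and ran from −0.1 to 0.1. Without regard to sign, the median size of the ratio was 0.18, 0.08 and 0.14 for the 10 genes. For the genes with at least 200 CPM it was 0.24, 0.16 and 0.16, and for all genes tested 0.32, 0.27 and 0.26. The 7 chaperones together made up 6412 ± 545, 6560.4 ± 1051 and 6391 ± 790.0 CPM across plasma none, low and high. Their total differed between groups by less than its spread over the TH numbers. Canx and Pdia3 made up most of it, with means of 2812 and 1319 CPM over the 9 sums, against 135.2 CPM for Pdia4.

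Cell by cell, every passing cell had a read of at least 1 of the 7 chaperones. The mean number read was 4.54, 4.93 and 4.73 in plasma none, low and high, and 4.42, 4.82 and 4.58 after thinning. In each TH number plasma low and plasma high were above plasma none (4.59, 5.27 and 4.90 in TH 1, 4.53, 4.60 and 4.70 in TH 2, and 4.49, 4.93 and 4.58 in TH 3, unthinned). All 7 were read in 2.89%, 10.5% and 9.31% of plasma none, low and high cells, and in 1.45%, 8.26% and 6.55% after thinning. The median number of genes of any kind moved in the same order, at 1546, 1794 and 1734 after thinning. By gene, plasma low had the highest share of cells with a read for 9 of the 10 genes, all but Pdia4, and after thinning for 8, when Pdia3 was also highest in plasma high. Canx was read in 95.7% of plasma low cells (exact interval 93.05% to 97.6%) against 89.6% of plasma none cells (85.9% to 92.6%), while its mean level was close in both (2871 ± 515 and 2877 ± 282.7 CPM).

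**Figure D3:**
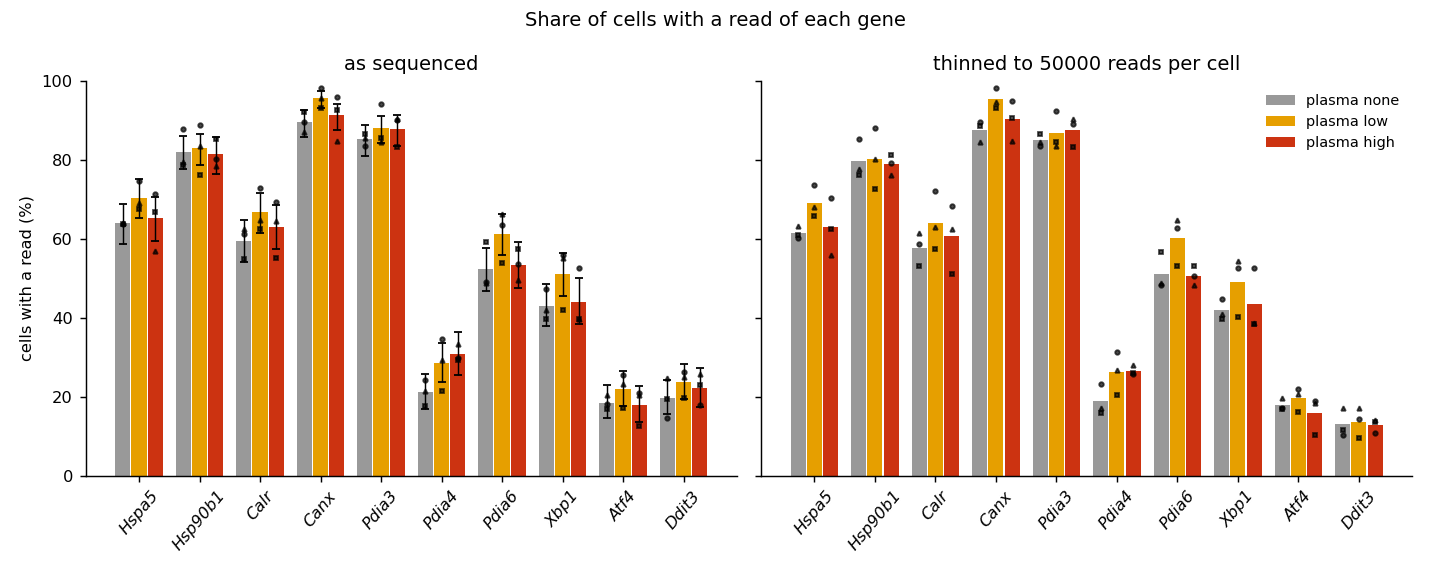
Percent of cells with a read (vertical axis) of each gene in plasma none, low and high, as sequenced and after thinning to 50000 reads per cell. Bars are all cells of a group, error bars exact 95% binomial intervals (left panel), and the small symbols the TH numbers (circle 1, square 2, triangle 3). Pdia4 is at 21.1%, 28.5% and 30.7%, and the shares of Ddit3 drop to 13.01%, 13.7% and 12.8% on thinning while the others change little.

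Pairs of the 10 genes were barely correlated across cells. Pearson's r of log2(CPM + 1) was computed over thinned cells within each of the 9 sets of group and TH number and averaged. Over the 45 pairs the mean r ranged from −0.04 to 0.13 with a median of 0.05, and 37 were positive. The highest were Canx with Pdia3 (0.13, above 0 in 8 of 9 sets), which work together on glycoproteins, Hspa5 with Hsp90b1 (0.12, 8 of 9), Hsp90b1 with Calr (0.11, 6 of 9) and Calr with Canx (0.10, 7 of 9). Hsp90b1 with Pdia4 was positive in 9 of 9 sets but small (0.07). Atf4 and Ddit3, which stand in 1 pathway, were at −0.04. The pairs come from the same libraries, in which the r of each gene with the number of genes read in the cell ran from 0.06 for Ddit3 to 0.22 for Calr, and the part of that number in the pairs was not tested. In counts as sparse as these, such values describe the cells and carry no test.

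**Figure D4:**
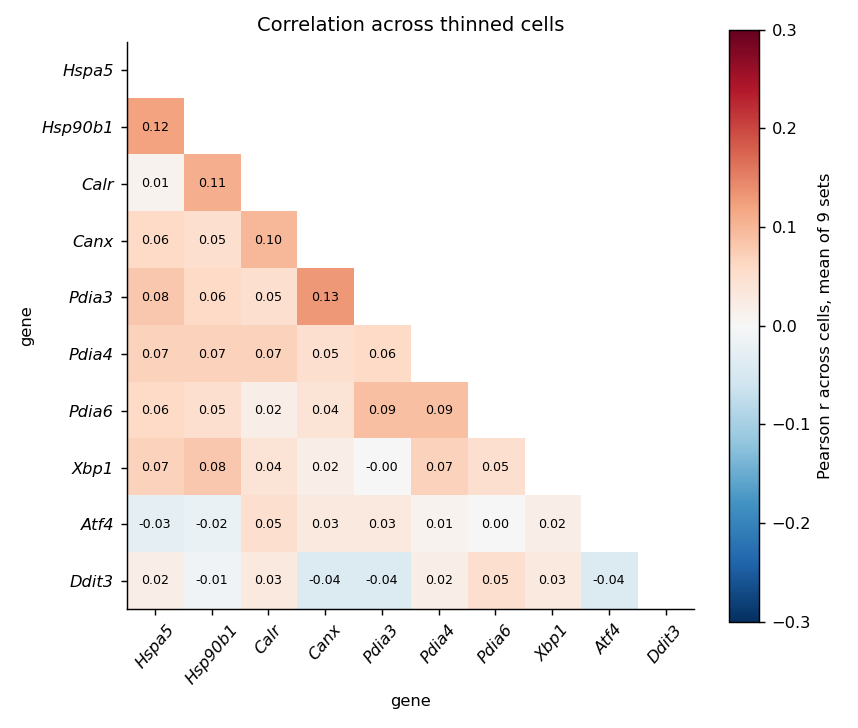
Mean Pearson r across thinned cells, over 9 sets of cells, for the 45 pairs of the 10 genes (colour scale from −0.3 to 0.3). The values run from −0.04 to 0.13, with the 4 highest among Canx with Pdia3, Hspa5 with Hsp90b1, Hsp90b1 with Calr and Calr with Canx.

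The genes most like a member across cells were sought among 2079 others read in at least 25% of cells, for the 8 members that passed the same limit. Atf4 and Ddit3 were read in fewer cells and were left out. For Hsp90b1 the most alike was Gm15344 (r 0.46), the transcript that overlaps it on the same strand, so that shared reads cannot be separated from likeness. Next were Csf1r (0.17), the receptor that microglia need to survive, and Ptgs1 (0.16). Canx was most like Ctsb (0.17), a lysosomal protease, then Tmed7, a cargo receptor of the early secretory pathway, and Pdia3 (both 0.13). Pdia3 was most like Tmem119 (0.15), Calr like Actb (0.15), Xbp1 like Scamp2 (0.15), Pdia4 like Rtcb (0.14), Hspa5 like Acsl4 (0.13) and Pdia6 like Ifngr1 (0.13). Rtcb is the ligase that joins the Xbp1 exons in the unconventional splicing, and its r with Pdia4 ran from −0.07 to 0.37 over the sets. The lowest r over the sets was also below 0 for Csf1r (−0.01), Ctsb (−0.07), Tmem119 (−0.06) and Ifngr1 (−0.08). It was above 0 for others, such as Gm15344 (0.33) and Tmed7 (0.04). The median r over all candidates was 0.02 to 0.03 and the 99th percentile 0.09 to 0.12. The named genes are the highest of 2079 candidates, so a value above these is given by the way they were picked.

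Genes of the same machinery were read from 9 lists, of which 6 cover the endoplasmic reticulum. Of the tested genes in these 6 lists, 15 of 70 were higher and 7 lower in 3 of 3 TH numbers for plasma high against plasma none, which is 21.4% and 10% beside the 18.8% and 13.8% of all genes. For plasma low against plasma none 15 of 70 were higher and 2 lower (21.4% and 2.86%, beside 16.7% and 11.8%). For plasma high against plasma low 4 of 71 were higher and 14 lower (5.63% and 19.7%, beside 14.1% and 13.1%). The medians were 0.13, 0.15 and −0.11, and 1 gene in each comparison met the size rule.

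That gene was Dnajb9 for plasma high against plasma none and Hspa13 in the comparisons that involve plasma low. Dnajb9 encodes a co-chaperone of Hspa5 that is induced by XBP1 and restrains IRE1. It stood at 161.6, 201.9 and 235.2 CPM in plasma none, 144.3, 168.5 and 237.6 CPM in plasma low, and 84.8, 145.6 and 73.6 CPM in plasma high. All plasma high sums were below all plasma none sums, and the log2 ratio was −1.02 ± 0.60. Without TH 3 it was −0.70, and with each cell weighted equally −0.45, both short of the rule. The share of cells with a Dnajb9 read differed little, at 23.7%, 25.1% and 21.03%.

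Hspa13 encodes an ER protein of the same family as Hspa5. It stood at 25.6, 29.2 and 43.1 CPM in plasma none, 84.4, 85.8 and 77.2 CPM in plasma low, and 18.1, 15.97 and 33.6 CPM in plasma high. The 3 plasma low sums exceeded the other 6. Plasma low exceeded plasma none by a log2 ratio of 1.34 ± 0.46, and plasma high was below plasma low by −1.90 ± 0.63. It kept these signs in 13 of 13 other settings, with 1.09 to 1.77 and −2.32 to −1.36. It was read in 9.54%, 17.1% and 11.4% of plasma none, low and high cells. In plasma low against plasma none, Hspa13 thus passed the 10% limit only through plasma low, the group where it was higher.

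Among the other ER chaperones and co-chaperones, 3 of 13 were higher and 3 lower in 3 of 3 TH numbers in plasma high against plasma none. Over all genes 18.8% were higher and 13.8% lower in this comparison, the shares beside which the counts of each list are given. Sdf2l1, a partner of Hspa5 in protein quality control, stood at 92.8, 102.7 and 104.6 CPM in plasma none and at 149.4, 150.95 and 182.8 CPM in plasma low, a log2 ratio of 0.68 ± 0.12. In plasma high it was 215.01, 97.4 and 131.5 CPM, without a common sign against plasma none. For oxidative folding, 3 of 9 were higher and 0 lower, with Tmx1, a membrane disulfide isomerase, at 0.60 ± 0.32 and the peroxiredoxin Prdx4 at −0.68 ± 0.98. For glycoprotein folding, 2 of 9 were higher and 1 lower: Prkcsh, the beta subunit of glucosidase II, at −0.76 ± 0.39. Uggt1, the glycoprotein folding sensor, had a ratio of 0.35 ± 1.31.

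In ER-associated degradation, 2 of 11 genes were higher and 1 lower in plasma high against plasma none (18.8% and 13.8% of all genes). Sel1l, the scaffold of the HRD1 ligase, stood at 69.2, 72.8 and 92.3 CPM in plasma none, 92.3, 100.3 and 134.3 CPM in plasma low, and 110.01, 239.2 and 131.7 CPM in plasma high. Plasma high against plasma none gave 0.96 ± 0.65, just short of the size rule, with TH 2 at 1.70. Selenok, a selenoprotein of the ER membrane, had −0.29 ± 0.13. Of the translocon, signal peptidase and oligosaccharyltransferase genes 4 of 21 were higher and 2 lower, with Spcs3 at 0.83 ± 1.14 and Ssr1 at −0.35 ± 0.36. Of the sensors and regulators of the response, 1 of 7 was higher and 0 lower: Ufm1, at 0.77 ± 1.0. Its ratio was 1.92 in TH 1, against 0.33 and 0.07 in the other TH numbers. Ufm1 was read in 6.36% of plasma none cells and 11.4% of plasma high cells. It thus passed the limit on cells with a read only through plasma high, the group where it was higher. Mbtps2, the protease that frees ATF6, had −0.44 ± 1.84.

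Downstream of Atf4 and Ddit3, 1 of 8 tested target genes was higher and 3 lower in plasma high against plasma none (18.8% and 13.8% of all genes), and the other 12 of the 20 listed were under the limits for testing. Cebpg, a partner of ATF4 in DNA binding, stood at 479, 946 and 771 CPM in plasma none, 385.2, 738 and 569.9 CPM in plasma low, and 300.5, 378.9 and 442 CPM in plasma high. Every plasma high sum was below every plasma none sum. Its log2 ratio was −0.93 ± 0.34 for plasma high against plasma none, −0.37 ± 0.06 for plasma low against plasma none and −0.56 ± 0.35 for plasma high against plasma low. Cebpb, another target, had 0.38 ± 0.53. Cytosolic and mitochondrial heat shock chaperones, which answer to another stress pathway, had 3 of 7 higher and 0 lower (18.8% and 13.8% of all genes) with a median of 0.22, and their named genes Dnajb1 (0.32 ± 0.48) and Dnaja1 (−0.55 ± 0.65) had no common sign over the TH numbers.

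Immediate early genes, which can mark handling of the cells during dissociation, had 0 of 5 higher and 3 lower in plasma high against plasma none, beside 18.8% and 13.8% of all genes. Jun was at 103.9 ± 8.85, 106.6 ± 20.7 and 65.9 ± 9.81 CPM across plasma none, low and high, and Jund at 49.3 ± 21.6, 47.3 ± 22.4 and 64.7 ± 20.99 CPM. The part of these genes in the levels of the ER stress factors was not tested.

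**Figure D5:**
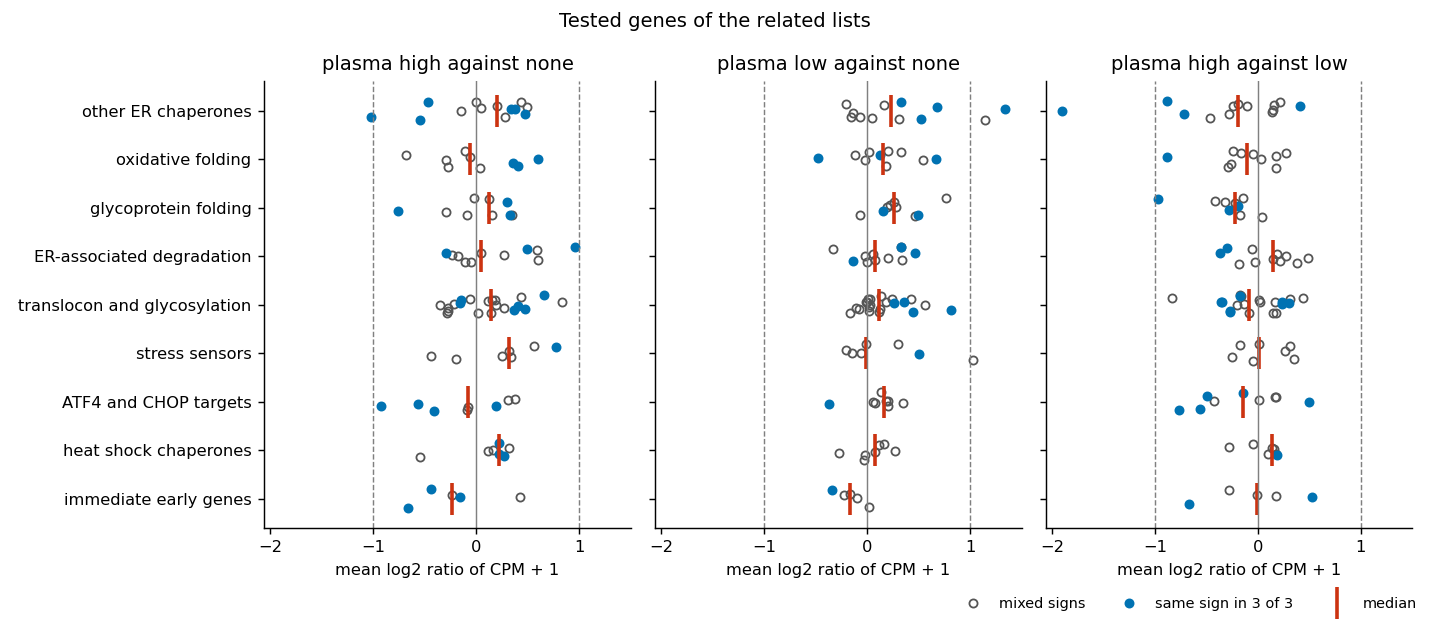
Mean log2 ratio of CPM + 1 (horizontal axis) of each tested gene in 9 related lists, for the 3 comparisons. Filled points kept 1 sign over the 3 TH numbers, open points did not, the red ticks are list medians and the dashed lines the size rule. The list medians lie between −0.24 and 0.32, and the filled points beyond a dashed line are Dnajb9 (−1.02) in the left panel and Hspa13 in the middle (1.34) and right panels (−1.90).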

How the data were processed

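The deposited tables hold, per gene and cell, a count of reads made by the authors. One column of TH 3 was read as an expected count, because 2 deposited features stood at 0.5, and it was rounded. Per the file headers each value is a mean for the feature, and both features list 2 probes. Per the file headers, the columns of TH 2 and TH 3 were reduced to top hits, and those of TH 1 carry no such note. The submitters' processing notes name bcl2fastq, Trim Galore, STAR 2.5.3a, Seurat and mm10, with no order. The tool that counted, and whether it used strand, are not given in the sources used here. Of 1111 labelled cells, 1045 matched a column by well and TH number, and 66 were not analysed here.

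Cells with at least 50000 reads and 500 genes were kept (987). Doublets were not called, since each well took a single sorted cell. Reads were summed by group and TH number, scaled with TMM factors from edgeR 4.0.16, and compared as log2(CPM + 1) within each TH number. DESeq2 1.42.0 size factors were an alternative. No test was run and no p-value is given. The calculation was checked on simulated data. Exon lengths and coordinates are from GENCODE M21 (GRCm38), promoters from RefSeq (GRCm38.p6). From each list the genes that met the size rule were named, and otherwise those with the highest and lowest ratio of plasma high to plasma none. For likeness, the 3 genes with the highest mean r per gene were taken, and the text names 1 to 3 of them. The genes and lists were chosen with earlier results of these data known.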

Additional observations from a re-analysis of the deposited data

How the results depend on the processing

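The ratios of the 10 genes, their medians and the counts drawn from them were recomputed under 13 alternatives. These were 2 other scalings, 2 pseudocounts, each TH number left out, each sum without its top cell and cells weighted equally. The rest were cells thinned to 50000 reads, 2 other cell filters and the outermost wells left out. Shares of cells with a read were recomputed only with thinning. Correlations, likeness and the ratios of list genes other than Dnajb9 and Hspa13 were not recomputed. The number of the 10 genes that met the size rule was 0 throughout. The median log2 ratio of the 10 genes moved by more than its SD with cells weighted equally (0.06 for plasma high against plasma none and 0.10 for plasma low against plasma none) and with thinning (0.05 and 0.09), and without the outermost wells (0.12, plasma low against plasma none). With each TH number left out it ranged from −0.09 to 0.10, 0.04 to 0.13 and −0.16 to −0.09 in plasma high against none, low against none and high against low. The share of all genes that met the size rule was 8.35%, 6.56% and 6.81% with no filter on low values, 1.12%, 0.128% and 0.250% from 200 CPM, and 16.3%, 10.2% and 11.1% with a 1.5-fold limit. Of 390 ratios of single genes, 380 moved by less than 1 SD, and the other 10 were Hspa5 and Ddit3 in plasma high against plasma low. Scaling moved the median of all genes by no more than 0.04.

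The ratios of Pdia4 to plasma none, of Xbp1 in plasma high to the other groups and of Ddit3 in plasma high to plasma low kept their signs in 13 of 13, while Ddit3 in plasma low against plasma none was −0.13 without TH 1 and Ddit3 in plasma high against plasma none 0.40 with thinning. Alternatives for Dnajb9, Hspa13 and the ER lists were added after seeing the data. Counts in those lists with the same sign in every TH number rise when only 2 TH numbers remain. For plasma high against plasma none they were then 19 to 28 higher and 12 to 19 lower. With library size scaling the higher count in that comparison fell from 15 to 10. For plasma high against plasma low it fell from 4 to 2 without the top cell of each sum. All ratios were taken within a TH number and so pair the groups by it. Beyond that, no paired analysis was run, no model was fitted and no animal is named. Group and plate columns cannot be told apart. Thinning lowered the share of cells with a read from 21.8% to 13.2% for Ddit3, from 26.5% to 23.7% for Pdia4 and from 19.6% to 17.9% for Atf4.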

Other observations

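Beyond the 5 members, an exact ERSE stood in the promoters of 32 other genes, of which 28 were in the tables. They were chosen after the values of the members had been seen. Only 4 of the 28 passed the limits for testing in plasma high against plasma none, and 0 met the size rule. Creld2, a secreted ER stress protein, was higher there in 3 of 3 TH numbers (0.38 ± 0.39, mean 28.9 CPM). Dnajc3, a co-chaperone that inhibits PERK, had −0.15 ± 0.74, Syvn1, the ligase of ER-associated degradation, −0.18 ± 0.94, and Hnrnpa3 0.12 ± 0.86. Creld2, Dnajc3 and Syvn1 were also on the lists of the report.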
